A study of Arabidopsis thaliana with 18 samples.

Results

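The genes described here are those of the plastid genome of Arabidopsis thaliana that encode the plastid's own RNA polymerase, its ribosomal proteins and the subunits of the chloroplast NDH complex. They were taken as every probe set that the array's annotation assigns to exactly 1 gene of the plastid genome with a symbol beginning with rpo, rps, rpl or ndh. This gave 29 genes, each with 1 probe set, of 13350 genes with such a probe set: 4 polymerase genes, 15 ribosomal protein genes and 10 NDH genes. A further 6 probe sets, for rps12 (2 probe sets), rpl2, rpl23, ndhB and rps7, name more than 1 gene locus and were left out.

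The series measured total RNA of the accession Van-0 on 18 ATH1 arrays, within a project on expression level polymorphism. The SA group holds 9 samples given SA at 0.3 mM in 0.02% silwet (SA is salicylic acid, which plants use as a defence hormone), and the silwet group holds 9 samples given 0.02% silwet, a spreading surfactant, without the hormone. All 18 samples therefore share the accession and the surfactant. The labels give no tissue, age, growth condition or time after treatment, and do not say whether samples came from separate plants.

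Arrays are called SA 1 to SA 9 and silwet 1 to silwet 9 by the order of the first number in their titles. Runs of 3 consecutive title numbers are called sets: arrays 1 to 3 of each treatment form set 1, arrays 4 to 6 set 2 and arrays 7 to 9 set 3. Each set holds the Rep numbers 1, 2 and 3 of the titles once per treatment, so Rep 1 is on arrays 1, 4 and 7. No label says what a set or a Rep number stands for. Signals are MAS5 values with a trimmed mean of 100 on every array, and differences are on the scale log2(signal + 2).

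The plastid genome is transcribed by a plastid-encoded polymerase together with nuclear-encoded ones. The plastid-encoded enzyme is of bacterial type, with the alpha subunit from rpoA, the beta subunit from rpoB and the beta-prime and beta-double-prime subunits from rpoC1 and rpoC2, and it makes most of the transcripts of the photosynthesis genes. The rps and rpl genes encode proteins of the small and the large subunit of a bacterial-type ribosome that translates the plastid's mRNAs. The ndh genes encode subunits of a thylakoid complex that passes electrons from ferredoxin to plastoquinone and takes part in cyclic electron flow around photosystem I. Many of these genes lie in polycistronic units in land plant plastids, such as rpoB-rpoC1-rpoC2, ndhC-ndhK-ndhJ and the long ribosomal protein cluster that includes rps19, rpl22, rps3, rpl16 and rpl14.

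Of 27 listed markers of green tissue, 3 had a probe set naming 1 gene, and all were bright. RCA, Rubisco activase, had signals between 2312 and 4059 on SA arrays and between 1429 and 3755 on silwet arrays, where the lowest were silwet 4 and silwet 7. LHCB4.1, a light-harvesting protein of photosystem II, lay between 2914 and 4977 on SA arrays and between 2992 and 4704 on silwet arrays. EXPA18, a root hair expansin, stayed between 11.9 and 25.5 on SA arrays and between 8.60 and 20.8 on silwet arrays. The arrays silwet 4 and silwet 7 stood apart by the ratio of 5′ to 3′ GAPDH control probe sets, 0.465 and 0.225 against 0.767 to 1.288 on the other 16, and they also had the lowest ratios for actin and ubiquitin. The main results are therefore given with and without these 2 arrays. Both are Rep 1 arrays, in sets 2 and 3, so leaving them out keeps silwet 1 as the only silwet array of Rep 1.

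All 29 genes passed the filter that left out the lowest 30% of probe sets by mean signal, which kept 15922. The genes rpoB, rps14 and ndhF were dim, with mean signals of 11.95, 15.13 and 16.74 and percentiles of 31.7, 36.0 and 37.9 among all probe sets. The next lowest of the 29, ndhH, lay at the percentile 54.6, and rps4 at 99.9. Levels of different probe sets are not compared with each other, since each responds on its own scale.

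**Figure D1:**
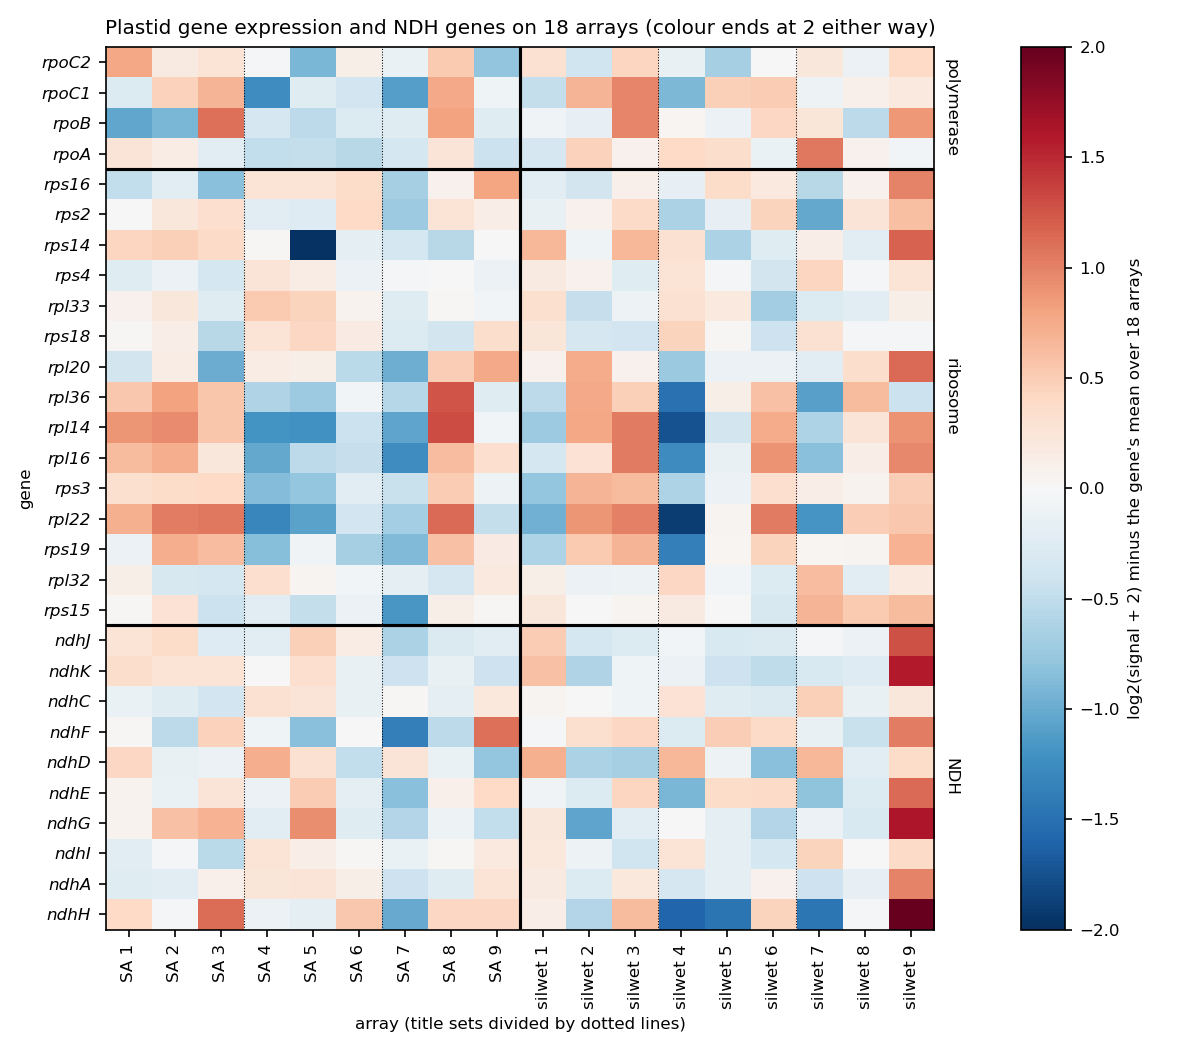
Each cell is log2(signal + 2) of 1 gene (rows, in 3 classes) on 1 array (columns, SA left of silwet) minus that gene's mean over the 18 arrays. The ribosomal protein genes rpl36 to rps19 lie together below their means on SA 4, SA 5, SA 6, SA 7, silwet 1 and silwet 4, and 7 of the 10 NDH genes are highest among silwet arrays on silwet 9.

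The comparison of SA with silwet asks whether these transcripts respond to the hormone. None of the 29 was called by limma at an adjusted p of 0.05, where 0 of 15922 probe sets (0%) were called, and the smallest adjusted p among the 29 was 0.99989. At an unadjusted p under 0.05, limma had rpoA and rps15 among the 29, against 1.52% of all tested probe sets. All 4 polymerase genes had lower means in SA than in silwet, with a median difference of -0.34. The 15 ribosomal protein genes divided into 5 with a higher and 10 with a lower mean in SA (median -0.11), and the 10 NDH genes into 5 and 5 (median -0.0083). The same median was -0.016 over all tested probe sets and 0.064 over the 33 plastid photosynthesis genes. Without silwet 4 and silwet 7, the polymerase genes had 1 higher and 3 lower means in SA (median -0.33), the ribosomal protein genes 3 and 12 (median -0.28) and the NDH genes 4 and 6 (median -0.035), and the median over all tested probe sets was -0.033. In bulk RNA, fewer cells of a type and less RNA per cell cannot be told apart.

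Among the polymerase genes, rpoA had signals of 495 to 875 with a median of 573 in SA, against 577 to 1522 with a median of 775 in silwet. The 2 groups overlapped, and the highest value was that of silwet 7. The means were 648 ± 158 in SA and 879 ± 280 in silwet (SD, n = 9 each), a difference of -0.42 ± 0.18 (SE). Its unadjusted p was 0.0268 and its adjusted p 0.99989 by limma. The difference of rpoA was -0.27 ± 0.16 without silwet 4 and silwet 7.

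The catalytic beta subunit gene rpoB was read at 4.19 to 25.3 in SA and at 6.84 to 23.1 in silwet, ranges that lie largely on top of each other, with a difference of -0.37 ± 0.28 (SE). For rpoC1 the signal ran between 85.8 and 349 (median 174) in SA and between 110 and 407 (median 237) in silwet. Its difference was -0.32 ± 0.29, and -0.51 ± 0.29 without silwet 4 and silwet 7. The difference of rpoC2 was -0.0045 ± 0.22, with 59.3 to 195 (median 123) in SA and 70.5 to 153 (median 115) in silwet. In set 2 the groups of rpoA did not overlap, with 518, 523 and 495 on SA 4 to SA 6 against 963, 931 and 667 on silwet 4 to silwet 6.

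Of the ribosomal protein genes, rps15, for a small-subunit protein, had the widest difference, -0.43 ± 0.19 (SE; unadjusted p = 0.0311, adjusted p = 0.99989 by limma). Its signals lay between 25.2 and 72.8 (median 54.2) in SA and between 46.96 and 95.8 (median 66.9) in silwet. The lowest SA value was that of SA 7 and the highest silwet values were those of silwet 7, silwet 9 and silwet 8. In set 3 the SA arrays (25.2, 64.1 and 60.3) were all below the silwet arrays (95.8, 85.6 and 93.1). The dim small-subunit gene rps14 differed by -0.39 ± 0.30, with 1.95 on SA 5 and 8.66 to 19.8 on the other SA arrays, against 8.02 to 33.4 on silwet arrays. The large-subunit gene rpl20 differed by -0.27 ± 0.26, with 50.2 to 172 in SA and 59.9 to 225 in silwet.

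The other ribosomal protein genes had smaller differences, and in each the 2 groups overlapped. The large-subunit gene rpl33 ran from 929 to 1588 (median 1164) in SA and from 680 to 1379 (median 1034) in silwet, a difference of 0.18 ± 0.15 (SE). The large-subunit gene rpl36 ran from 349 to 1392 (median 557) in SA and from 203 to 983 (median 626) in silwet, and had the highest difference of the class, 0.21 ± 0.33. The small-subunit gene rps18 ran from 288 to 563 in SA and from 316 to 575 in silwet, and differed by 0.039 ± 0.16. The bright small-subunit gene rps4 ran from 2721 to 4149 in SA and from 2676 to 4661 in silwet, and differed by -0.13 ± 0.11. For rps2, of the same subunit, the means were 716 ± 161 in SA and 716 ± 235 in silwet (SD, n = 9 each).

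Of the NDH genes, ndhF, for an antiporter-like membrane subunit, had 4.65 to 34.9 in SA and 10.6 to 33.0 in silwet, a difference of -0.39 ± 0.28 (SE). The stromal-arm subunit gene ndhH pointed the other way, at 0.34 ± 0.43, with 15.02 to 71.9 in SA and 9.46 to 172 in silwet. The 3 lowest silwet values of ndhH were those of silwet 4 (9.46), silwet 5 (10.5) and silwet 7 (10.6), and without silwet 4 and silwet 7 its difference was -0.040 ± 0.41. The membrane-subunit gene ndhG differed by 0.14 ± 0.285, with 80.3 to 232 in SA and 56.9 to 375.5 in silwet. The smallest differences of the class in size included those of ndhK, of the stromal arm, 0.027 ± 0.24, with 128 to 220 in SA and 113 to 525 in silwet, and ndhE, of the membrane arm, 0.0084 ± 0.24, with 155 to 395 in SA and 146 to 616 in silwet.

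**Figure D2:**
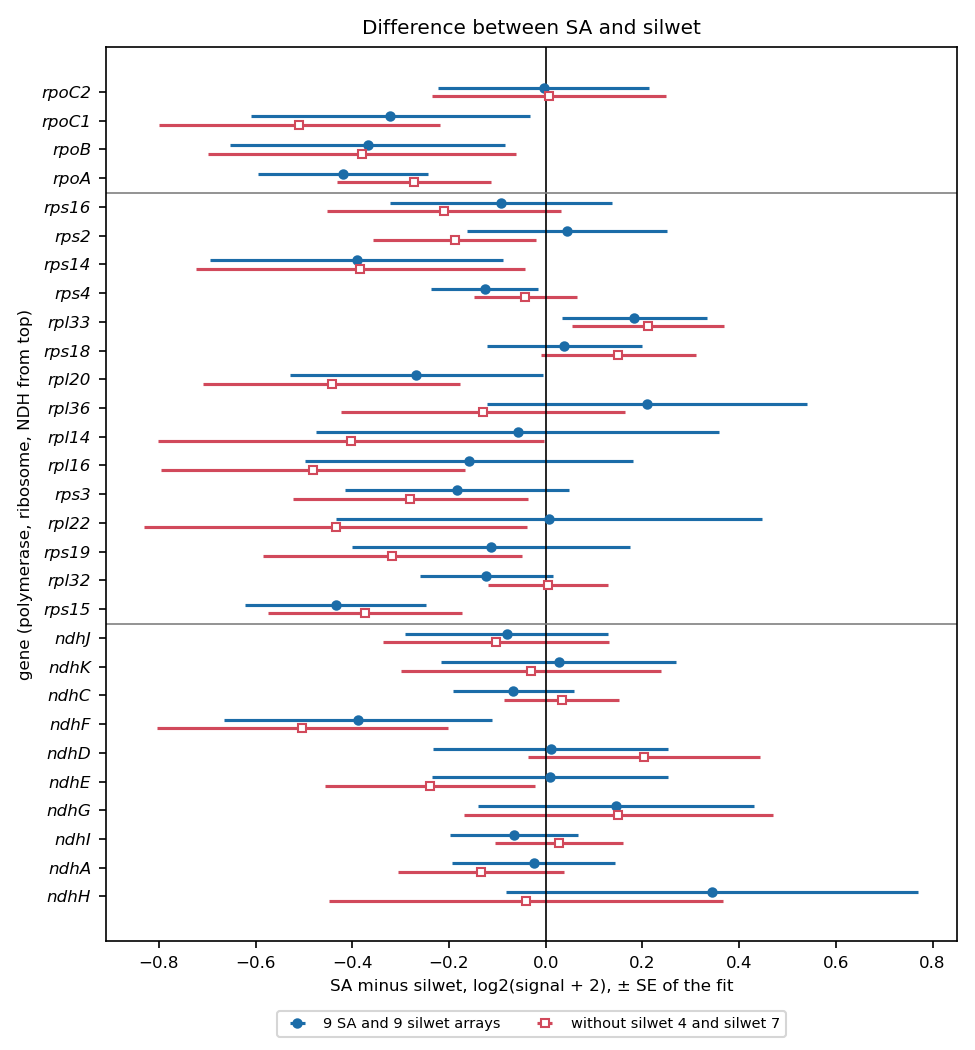
Points give the SA minus silwet difference in log2(signal + 2) of each gene with the standard error of the limma fit, for all arrays (filled circles) and without silwet 4 and silwet 7 (open squares). The polymerase genes rpoA, rpoB and rpoC1 lie left of 0 in both fits and ndhH stands at 0.34 in the first and at -0.040 in the second.

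Within single sets, again none of the 29 genes was called, while 0.81% of tested probe sets were called in set 1 (0.352% as lower in SA), 0% in set 2 and 0% in set 3. At an unadjusted p under 0.05, limma had none of the 29 in set 1 (12.6% of all), rpoA in set 2 (10.8%), and rps15 and ndhJ in set 3 (1.96%). Without silwet 4 and silwet 7, none of the 29 was called within a set either. Limma then had unadjusted p under 0.05 for rpoA, rpoC1, rpl22, rpl33 and ndhC in set 2 (26.3% of all). In set 3 it had rps15, ndhJ and ndhK (1.97%), and in set 1 none (16.2%). The test of whether the SA difference varied between sets called none of the 29 and 0.17% of all tested probe sets, with none of the 29 at an unadjusted p under 0.05 (12.4% of all). With silwet 4 and silwet 7 left out it called none of the 29 and 2.74% of all, and ndhJ, ndhG, ndhK, rpl22 and ndhC had unadjusted p under 0.05 (25.9% of all), the smallest adjusted p being 0.156 by limma. The NDH genes had 6 higher and 4 lower means in SA than in silwet in set 1 (median 0.10), 9 higher and 1 lower in set 2 (median 0.31; 8 and 2 without silwet 4) and 0 higher and 10 lower in set 3 (median -0.38). The interaction p of ndhG was the smallest of the class at 0.0561 (adjusted p = 0.415 by limma), that of ndhJ 0.0591 (adjusted p = 0.419). For ndhG the 3 SA arrays of set 3 read 80.3, 113 and 84.9, against 111, 97.8 and 375.5 on the silwet arrays. For ndhJ they read 259, 330 and 346, against 400.5, 374.8 and 985. One array, silwet 9, holds the high value in both genes.

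Set 3 depended on single arrays. Leaving out silwet 9, the NDH class in set 3 had 4 higher and 6 lower means in SA (median -0.10), and leaving out SA 7 instead it had 3 higher and 7 lower (median -0.17). It had 0 higher and 10 lower without silwet 7 (median -0.55). All 29 genes together had 3 higher and 26 lower means in SA in set 3, where 45.9% of all tested probe sets were lower. The counts were 13 and 16 without silwet 9, 14 and 15 without SA 7, and 1 and 28 without silwet 7.

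Arrays that did not overlap between treatments within a set were few. All 3 SA arrays were below all 3 silwet arrays for ndhC in set 1 (10.1% of tested probe sets), for rpoA and rpoB in set 2 (10.5%) and for rps15 and ndhJ in set 3 (4.62%). All 3 were above for ndhA in set 2 (7.66%) and for no gene in set 1 (8.62%) or set 3 (3.68%). Read against those shares, the counts were below the background in sets 1 and 2. In set 3 they were near it, with 2 of 29 genes below and 0 above.

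The comparison of the sets asks how far levels moved with the run of title numbers, over both treatments. The F-test over the 3 sets called 0 of the 29 genes and 22.1% of all 15922 probe sets, and at an unadjusted p under 0.05 it had 2 of the 29 (rpl14 and rps3) against 34.2%. The smallest adjusted p among the 29 was 0.108, that of rpl14. None of the 33 plastid photosynthesis genes was called, and psaB, a reaction centre protein of photosystem I, had their smallest adjusted p, 0.207. The spread within a treatment and set was wide for these genes: the median standard deviation of log2(signal + 2) was 0.52 over the 29 genes, 0.54 over the photosynthesis genes and 0.40 over all tested probe sets.

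A list of 33 nuclear genes held subunits and factors of the NDH complex and other genes of cyclic electron flow, such as PGRL1B. Of these, 9 could be measured on single-gene probe sets, PGRL1B among them. Between sets 5 were called, where 22.1% of all tested probe sets were. The subunit genes NdhL and NdhN and the assembly or editing factor genes CRR28, CRR41 and CRR42 passed. With silwet 4 and silwet 7 left out, 4 of the 9 were called (22.3% of all), and NdhN was not (adjusted p = 0.0823 by limma, against 0.0397 with all arrays). CRR41, whose protein acts in assembly of the complex, had 52.2, 51.8 and 35.7 on SA arrays of set 1, 155, 107 and 148 in set 2 and 122, 144 and 91.4 in set 3. On silwet arrays it had 82.4, 72.7 and 89.3 in set 1, 176, 123 and 126 in set 2 and 164, 122 and 138 in set 3. Every array of sets 2 and 3 was above every array of set 1. CRR41 was higher in set 2 than in set 1 by 1.14 ± 0.17 and in set 3 than in set 1 by 1.04 ± 0.17 (adjusted p of the F-test = 0.000194 by limma). Whether nuclear and plastid subunit genes differed from each other between sets was not tested.

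Lower values in set 2 than in set 1 were seen in the ribosomal protein cluster. Over the 29 genes, 9 had a higher and 20 a lower mean in set 2 (median -0.16), against a median of -0.022 over all tested probe sets. All 4 polymerase genes had a lower mean in set 2 (median -0.37). The large-subunit gene rpl14 had 238, 246 and 188 on SA arrays of set 1, 54.5, 53.9 and 93.9 in set 2 and 59.8, 317.7 and 123 in set 3. Its silwet arrays had 76.0, 221 and 263 in set 1, 36.6, 98.1 and 213 in set 2 and 82.7, 153 and 239 in set 3. The SA arrays of set 2 were all below those of set 1, while the silwet arrays of the same sets overlapped. The difference of set 2 from set 1 was -1.28 ± 0.45 (SE), and in that pairwise comparison, which called 22.3% of all tested probe sets, rpl14 was the 1 gene of the 29 called (adjusted p = 0.0485 by limma). At an unadjusted p under 0.05, 8 of the 29 differed between set 2 and set 1 (35.1% of all). Between set 3 and set 1 none of the 29 was called, against 21.6% of all (9.73% as lower in set 3), and 1 had an unadjusted p under 0.05 (33.6%). Between set 3 and set 2 none was called (0.0251% of all, each lower in set 3) and none had an unadjusted p under 0.05 (6.68%). Without silwet 4 and silwet 7, rpl14 differed by -0.96 ± 0.40 between set 2 and set 1, and none of the 29 was called (20.4% of all).

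The small-subunit gene rps3 had 811, 837 and 860 on SA arrays of set 1, 355, 379 and 559 in set 2 and 477, 919 and 608 in set 3. On silwet arrays it had 380.8, 1041 and 1010 in set 1, 424, 602 and 819 in set 2 and 711, 682 and 912 in set 3. It too was low on all SA arrays of set 2 relative to set 1, with a difference over both treatments of -0.65 ± 0.25 (SE). The dim gene rps14 differed by -0.88 ± 0.34 between set 2 and set 1.

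Averaged over the sets, SA and silwet arrays of the same Rep number deviated together. Agreement of single arrays across sets was not measured. The set comparison was also made with the Rep number as a block. With the Rep number as block, 5 of the 29 genes were called, against 28.7% of all tested probe sets: rpoC1, rpl14, rpl22, rps19 and rps3. All 5 had a lower mean in set 2 than in set 1, with differences of -0.64 ± 0.19 for rpoC1, -1.28 ± 0.33 for rpl14, -1.22 ± 0.32 for rpl22, -0.72 ± 0.20 for rps19 and -0.65 ± 0.19 for rps3 (SE; adjusted p of the F-test 0.0227 to 0.0454 by limma). Without silwet 4 and silwet 7 the blocked fit called rpoC1, at -0.60 ± 0.17 in set 2 and -0.53 ± 0.17 in set 3 relative to set 1, and no other of the 29 (27.2% of all tested probe sets). The share called was thus below the background in each of these fits.

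**Figure D3:**
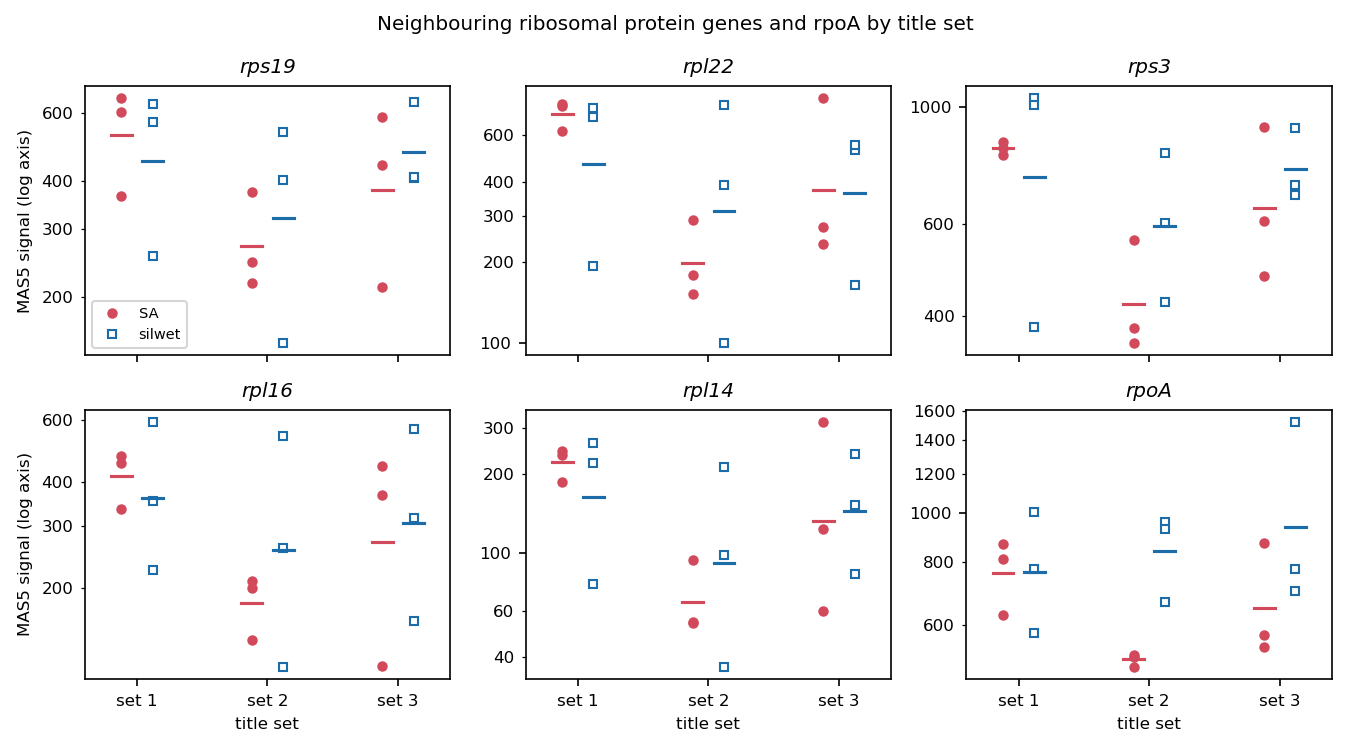
Each panel gives the MAS5 signal (log axis) of 1 gene on the 3 arrays of each set, with SA as filled circles left of silwet as open squares and bars at the geometric mean. In set 2 the SA arrays of rpl14 (53.9 to 93.9) and rps3 (355 to 559) lie below those of set 1, and for rpoA they lie below the silwet arrays of the same set.

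No plastid NDH gene was called between sets. The iron-sulfur subunit gene ndhI had the smallest adjusted p of the class (0.197 by limma), with a difference of 0.34 ± 0.14 (SE) between set 3 and set 1. Its signals ranged from 1790 to 3144 in SA and from 1966 to 3548 in silwet. The membrane-subunit gene ndhC ran from 1086 to 1762 in SA and from 1168 to 1986 in silwet.

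The mitochondrial complex I genes, whose products form the respiratory relative of the NDH complex, numbered 8, with 15 probe sets. For each gene the probe set with the highest mean signal was used, and 6 genes were tested. Of these nad9 was called between sets (adjusted p = 0.00401 by limma), lower in set 3 than in set 1, with a difference of -1.12 ± 0.22 (SE). No complex I gene was called between SA and silwet, where nad5 had the smallest p and a difference of 0.33 ± 0.25. FUG1, a nuclear-encoded initiation factor of plastid translation, differed by 0.68 ± 0.32 between set 3 and set 1 without being called. The nuclear partners of the plastid polymerase (25 listed) had no probe set naming 1 gene.

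The comparison of Rep numbers asks the same of the number in the titles that recurs in each set. The F-test over Rep numbers called 1 of the 29 genes, ndhD, and 0.804% of all tested probe sets, and at an unadjusted p under 0.05 it had 13 of 29 against 15.9%. Of the plastid photosynthesis genes the same test called psbA and psbT (adjusted p = 0.00658 and 0.0316 by limma). The gene ndhD, for a membrane subunit whose start codon is made by RNA editing, had 1506, 1864 and 1342 on the Rep 1 arrays of SA and 1838, 1794 and 1787 on those of silwet. Its Rep 2 arrays had 1016, 1400 and 1030 in SA and 729, 1053 and 959 in silwet, and its Rep 3 arrays had 1035, 797 and 655 in SA and 706, 632 and 1443 in silwet. All Rep 1 values but that of SA 7 exceeded every value of Rep 2 and Rep 3. The difference of Rep 3 from Rep 1 was -0.997 ± 0.20 (SE; adjusted p of the F-test = 0.0467 by limma). It was -1.01 ± 0.26 without silwet 4 and silwet 7, with an adjusted p of 0.330 by limma.

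The pairwise comparison of Rep 3 with Rep 1, added after the values were seen, called 3 of the 29 genes as higher in Rep 3 (2.13% of all tested probe sets) and 1 as lower (0.641%), 4 in all against 2.77%. At an unadjusted p under 0.05 it had 15 of the 29 (19.9% of all). The small-subunit gene rps2 had 760 to 1045 (median 902) on Rep 3 arrays against 334 to 689 (median 517) on Rep 1 arrays, which did not overlap, and differed by 0.84 ± 0.17 (SE). The polymerase gene rpoC1 had 159 to 407 (median 265) on Rep 3 arrays against 85.8 to 194 (median 129) on Rep 1 arrays, and differed by 0.9996 ± 0.25. The NDH gene ndhH had 44.0 to 172 (median 49.8) on Rep 3 arrays against 9.46 to 43.3 (median 22.3) on Rep 1 arrays, and differed by 1.52 ± 0.39. The lower one was ndhD. Rep 2 against Rep 1 called none of the 29 (0% of all) and had 10 at an unadjusted p under 0.05 (14.2%), and Rep 3 against Rep 2 called none (0%) and had 5 (4.76%). The SA difference was not called as varying between Rep numbers for any of the 29 (0% of all tested probe sets), and none had an unadjusted p under 0.05 there (3.91%). Leaving out silwet 4 and silwet 7 rests the silwet part of Rep 1 on silwet 1 alone, which limits the comparisons with Rep 1 that follow. Without silwet 4 and silwet 7, Rep 3 against Rep 1 called none of the 29 and 0.0126% of all tested probe sets, and the differences were 0.61 ± 0.19 for rps2, 0.99 ± 0.31 for rpoC1 and 0.97 ± 0.44 for ndhH.

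With the title set as a block, the F-test over Rep numbers called 8 of the 29 genes, against 4.82% of all tested probe sets: rpoC1, rpl14, rpl16, rpl22, rps19, rps2, ndhD and ndhH. The same fit called 8 of the 33 plastid photosynthesis genes, so such calls were not particular to the 29. Without silwet 4 and silwet 7 that fit called none of the 29, 1 of the 33 photosynthesis genes and 0.0628% of all. Its pairwise comparison of Rep 3 with Rep 1, without these arrays, called rpoC1 (1.197 ± 0.23), rps19 (1.12 ± 0.19) and rps3 (1.005 ± 0.20; SE) as higher in Rep 3, against 1.73% of all in either direction (adjusted p 0.0338 to 0.0399 by limma). The 5′ to 3′ ratio of GAPDH averaged 0.747 ± 0.356 on Rep 1 arrays, 1.05 ± 0.0918 on Rep 2 arrays and 1.07 ± 0.168 on Rep 3 arrays (SD, n = 6 each). Rep 1 holds silwet 4 (0.465) and silwet 7 (0.225). Its other arrays, SA 1, SA 4, SA 7 and silwet 1, read 1.212, 0.826, 0.767 and 0.989, against 0.904 to 1.288 on Rep 3 arrays. The part of RNA quality in the Rep differences was not tested beyond leaving out the 2 arrays. Next to ndhD, psaC, an iron-sulfur subunit of photosystem I in the same transcription unit, differed by -1.08 ± 0.33 between Rep 3 and Rep 1, and psbA, a reaction centre protein of photosystem II, by -3.96 ± 0.43. The photosynthesis genes went both ways, with psaA at 2.40 ± 0.63 and psbT at 1.15 ± 0.205 (SE) in the same comparison. These genes were picked with their values already known.

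**Figure D4:**
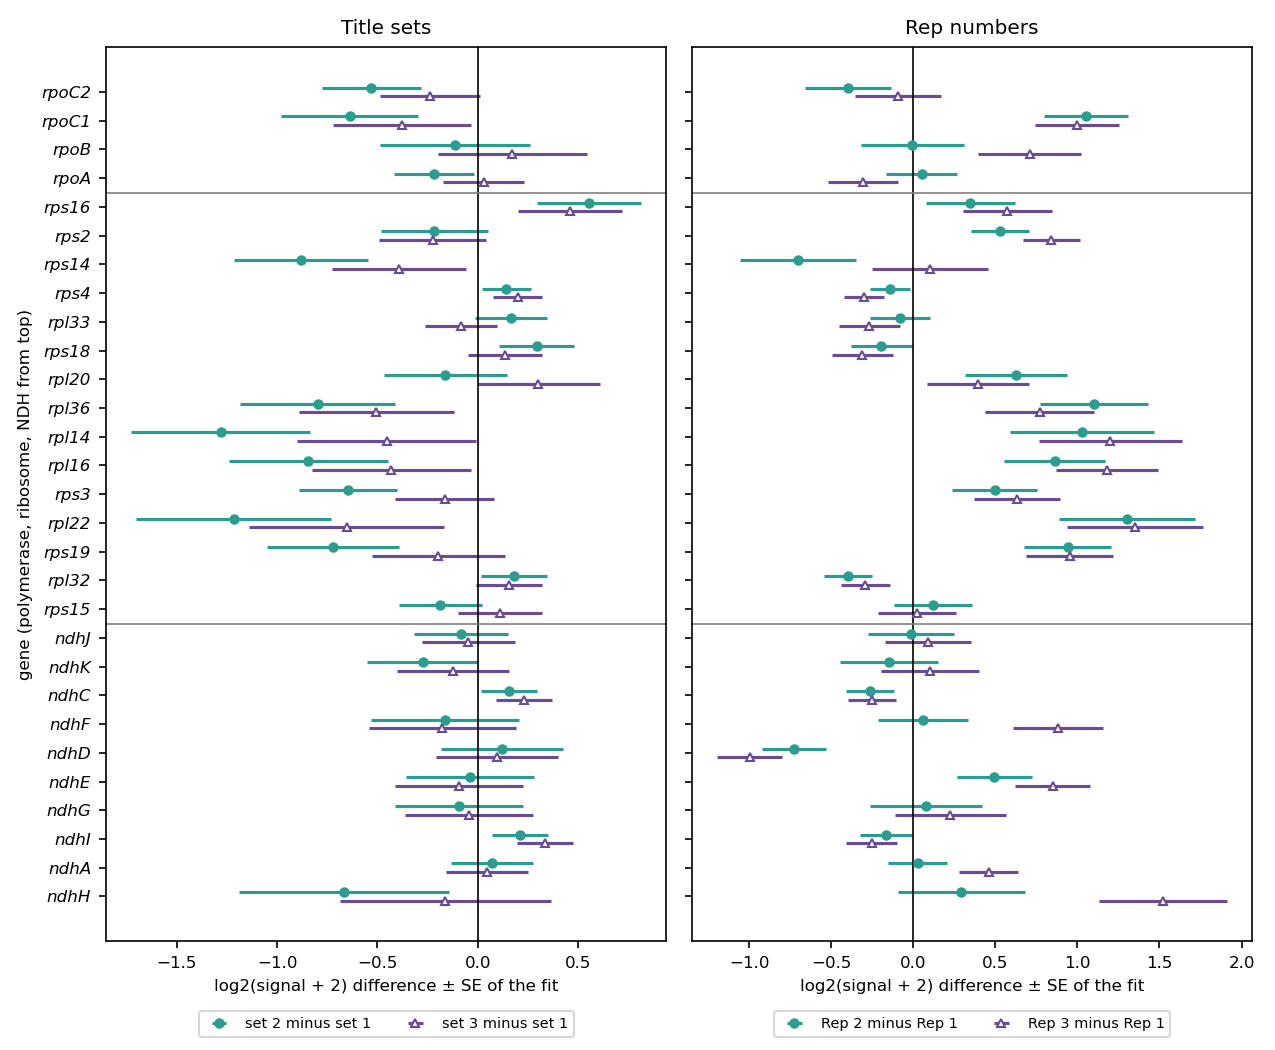
Differences of log2(signal + 2) with the standard error of the limma fit are plotted per gene, for sets 2 and 3 relative to set 1 (left) and for Rep 2 and Rep 3 relative to Rep 1 (right). The run from rpl36 to rps19 lies left of 0 for set 2 and right of 0 for both Rep comparisons, and ndhD lies farthest left for Rep 3, at -0.997.

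The arrays silwet 4 and silwet 7 did not shift the 29 genes one way. Both were below all other silwet arrays for 7 genes (rpl16, rpl20, rpl22, rpl36, rps2, ndhA and ndhE), which is 24.1% of the 29 against 13.3% of all tested probe sets. Both were above all other silwet arrays for 4 genes (rpl32, rps18, rps4 and ndhC), 13.8% against 10.3%. The small-subunit gene rps4 read 4211 and 4661 there, against 2676 to 4171 on the other silwet arrays. Without these 2 arrays, 8 of the 29 genes had a higher and 21 a lower mean in SA than in silwet, against 10 and 19 with them.

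Other single arrays carried more of the NDH class. On silwet 9 the signal was the highest of the 9 silwet arrays for 7 of 10 NDH genes and for 12 of all 29 (41.4%), against 30.3% of the photosynthesis genes and 11.2% of all tested probe sets. The NDH genes there lay a median of 1.24 above the median of the other silwet arrays, with a range of 0.25 to 2.65. The membrane-subunit gene ndhA had 1467 on silwet 9 and 555 to 849 on the other silwet arrays, and ndhH had 172 on silwet 9 and 9.46 to 51.6 on the others. On SA 7 the signal was the lowest of the 9 SA arrays for 7 of 10 NDH genes and for 11 of all 29 (37.9%), against 30.3% of the photosynthesis genes and 7.81% of all tested probe sets. The 5′ to 3′ GAPDH ratio was 0.938 on silwet 9 and 0.767 on SA 7, which was the lowest after silwet 4 and silwet 7.

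Genes that neighbour each other in the plastid genome often varied together over the 18 arrays. In the order of the TAIR10.1 gene table, 18 pairs of the 29 genes are adjacent. Their median Pearson correlation of log2(signal + 2) was 0.40, with a range of 0.08 to 0.93, against 0.20 for the 388 other pairs, with a range of -0.82 to 0.95. Within the ribosomal protein cluster, the pair rpl14 and rpl16 had r = 0.93 and rho = 0.91 (permutation p = 1e-05 each, the smallest the permutations can give; adjusted over 18 pairs 9e-05 and 0.00018). Leaving out the 2 arrays farthest from the median of rpl14 gave r = 0.93, and within treatments it was 0.93 in SA and 0.95 in silwet.

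The next pairs of the cluster had lower values: rpl16 and rps3 had r = 0.81 and rho = 0.79, rps3 and rpl22 had r = 0.87 and rho = 0.83, and rpl22 and rps19 had r = 0.84 and rho = 0.78. Among NDH genes, ndhJ and ndhK had r = 0.90 and rho = 0.80, and r = 0.71 without silwet 9 and silwet 1. The genes ndhA and ndhH had r = 0.79 and rho = 0.61, and r = 0.60 without silwet 9 and SA 7. With rpl33 and rps18 (r = 0.68, rho = 0.64), these 7 pairs had adjusted permutation p under 0.05 for both measures, the largest being 0.0219. The permutations moved arrays freely over treatments, sets and Rep numbers, so these p-values also take in shifts that arrays of a group share. Relative to the means of treatment and Rep number, the 7 pairs had r of 0.62 to 0.91.

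Adjacency did not always go with a shared pattern. The genes ndhK and ndhC, in 1 transcription unit with ndhJ, had r = 0.14 and rho = 0.17 (adjusted permutation p = 0.633 and 0.608). The polymerase genes rpoC2 and rpoC1 had r = 0.14 and rho = 0.25 (adjusted permutation p = 0.633 and 0.428), and rpoC1 and rpoB had r = 0.47 and rho = 0.53 (0.105 and 0.0624). When each array was taken relative to the mean of its treatment and Rep number, rpoC2 and rpoC1 had r = 0.62. The pair rps18 and rpl20 had r = 0.08 over all arrays, 0.56 in SA and -0.46 in silwet.

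The likeness also ran between distant genes. The 6 genes rpl36, rpl14, rpl16, rps3, rpl22 and rps19, a run singled out after the values were seen and so described without a test, had correlations of 0.70 to 0.95 among themselves, and 0.65 to 0.96 without silwet 4 and silwet 7. The polymerase gene rpoC1, which lies elsewhere in the genome, correlated with them at 0.74 to 0.91, and rps2 at 0.54 to 0.82. With rpoA, which lies near the run in the gene table, the correlations were 0.06 to 0.46 over all arrays, 0.57 to 0.74 without silwet 4 and silwet 7, 0.62 to 0.87 in SA and -0.53 to 0.14 in silwet. Another 6 genes of 2 classes, rps4, rps18, rpl32, ndhC, ndhD and ndhI, likewise picked with their values known, correlated with each other at 0.51 to 0.89 over all arrays, 0.40 to 0.86 without silwet 4 and silwet 7, 0.01 to 0.82 in SA and 0.69 to 0.95 in silwet. With the run of 6 they correlated at -0.82 to -0.37 over all arrays, -0.75 to -0.27 without silwet 4 and silwet 7, -0.89 to -0.16 in SA and -0.96 to -0.20 in silwet. All signals of an array share its scaling to a trimmed mean of 100, so these values describe which arrays were high or low within that scaling.

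**Figure D5:**
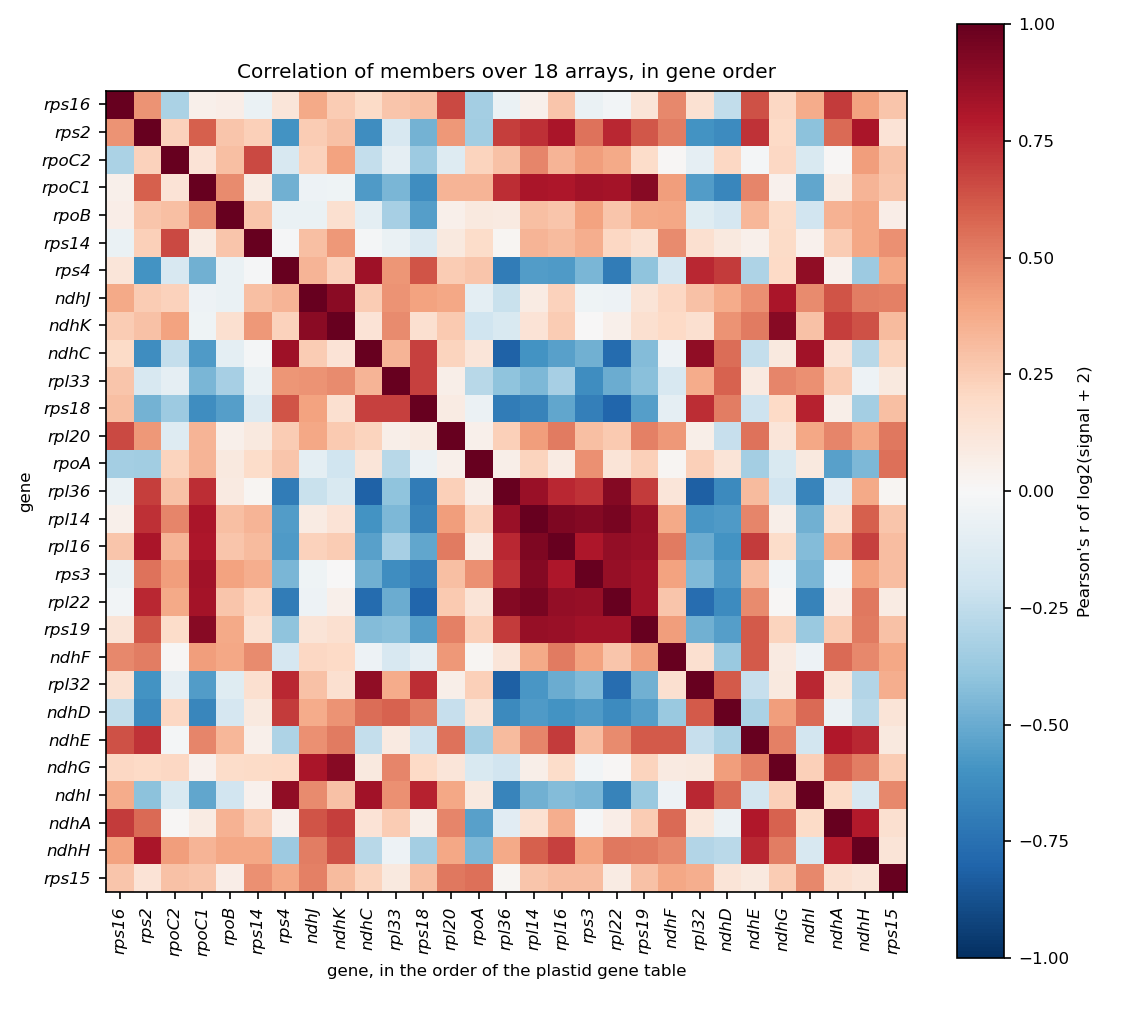
The colour gives Pearson's r of log2(signal + 2) over 18 arrays for each pair of the 29 genes, placed in the order of the plastid gene table. The block from rpl36 to rps19 (0.70 to 0.95) and the pair ndhJ and ndhK (0.90) stand beside weak neighbours such as ndhK and ndhC (0.14), and rpoC1 follows the block from a distance.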

How the data were processed

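Per the labels, biotin-labelled total RNA was hybridised to ATH1 arrays, 1 sample per array. The authors deposited 1 intensity per probe set and array, and the submitters' processing notes name MAS5, which summarises each array alone; no version, and no primer for copying the RNA, is given in the sources used here. Each array's mean without its lowest and highest 2% was 100, and a shift of most transcripts in 1 direction is therefore hidden.

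From these, log2(signal + 2) was computed for the 22810 probe sets, the 64 AFFX controls were dropped and then the lowest 30% by mean, leaving 15922. Tests were made with limma 3.58.1 in R 4.3.3 (lmFit, eBayes with an intensity trend; two-sided), adjusted by Benjamini-Hochberg over all 15922, with a threshold of 0.05: SA against silwet, the sets and their interaction with treatment, SA against silwet within sets, and the Rep numbers and their interaction. Alternatives were a pseudocount of 16, no filter or the lowest 50% left out, quantile normalization, median centring, no intensity trend, array weights, blocks for Rep number, title set or array number, and leaving out silwet 4 and 7 or each array in turn. Correlations used permutation tests in scipy 1.17.1. The scripts were tested on simulated data. Standard errors are those of the fits, and the number of arrays limits the precision.

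Groups follow the treatment in the labels. No label says that samples came from separate plants, so the p-values rest on sample-to-sample spread that may be technical. Averaged over the sets, SA and silwet arrays of the same Rep number deviated together from their treatment means. The correlations of these deviations were 0.355, 0.419 and 0.322. Agreement of single arrays across sets was not measured. The Rep number served as a block in a further fit of the sets. Pairs of the same array number, with correlations of -0.285 to 0.72, did not pass the same check. Genes were named through the platform's annotation with symbols from the TAIR10.1 gene table. The members, the gene lists and the tests were chosen with earlier results of these data known. Values by array are given by a rule. In each class it takes the genes with the widest SA difference and the smallest p by set, Rep number and interaction. It also takes genes with an array set apart by Dixon's ratio. From each other list it takes the gene with the smallest p by set and by SA. The genes rpl16, rpl22, rpl36, psbA, psaC, psaA and psbT lie outside that rule, as do the ranges of the remaining members. They were chosen with their values known.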

Additional observations from a re-analysis of the deposited data

Results flagged for a closer look

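An array was looked for that stood apart from the other 8 of its treatment by Dixon's ratio on the log2 scale, for the 29 genes and 3 class means, in 64 groups of 9 arrays. Chance alone would give about 3.2 such arrays, and 5 were found. The gene rps14 had 1.95 on SA 5, below 8.66 to 19.8 on the other SA arrays. The gene ndhA had 1467 on silwet 9, above 555 to 849 on the other silwet arrays, and ndhG had 375.5 on silwet 9, above 56.9 to 141. The mean log2 signal of the NDH class was 7.68 on SA 7, below 8.08 to 8.41 on the other SA arrays, and 9.28 on silwet 9, above 7.83 to 8.44 on the other silwet arrays. On linear signals of single genes, a choice made after the data were seen, 8 of 58 groups had such an array.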

How the results depend on the processing

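SA against silwet called 0 of the 29 genes under all 11 other settings and without any 1 array, and the class mean differences kept within the spread between arrays. The ndhH difference turned to -0.040 without silwet 4 and 7. For Rep numbers the count of 1 became 0 with no filter, median centring, no intensity trend and without silwet 4 and 7 (also with the title set as block), 8 with the title set as block and 15 with array weights (25.9% of all tested probe sets), whose estimate did not fully converge. The count stayed at 1 with quantile normalization, but the gene called was rps2 and not ndhD. Leaving out 1 array gave 0 to 6, with rpl16 alone called without SA 1. By limma's F-test over Rep numbers, ndhD was no longer called with no filter (adjusted p = 0.0606) or no intensity trend (0.0590). The same held for quantile normalization (0.0781) and median centring (0.0628). In that order, the differences of Rep 3 from Rep 1 were -0.997, -0.997, -0.82 and -1.25. The pairwise comparison of Rep 3 with Rep 1 still called ndhD under these settings. The F-test call was also lost without silwet 4 and 7 (difference -1.01) and with the title set as block without them (-1.06). Without 1 array the ndhD difference ran from -1.18 to -0.88. The F-test call of ndhD held in only 3 of these fits, those without SA 5, silwet 1 or silwet 9. Genes higher in Rep 3 than in Rep 1 numbered 1 with no filter, quantile normalization and no intensity trend, 0 with median centring and without silwet 4 and 7, 8 with the title set as block, 3 with that block without silwet 4 and 7, 14 with array weights (28.1% of all tested probe sets called in either direction) and 0 to 7 without 1 array; genes lower numbered 0 without silwet 4 and 7, with or without that block, 2 with array weights and 0 to 1 without 1 array. With the Rep number as replicate block, the sets called 5 of the 29 genes, and 1 without silwet 4 and 7. Array weights called 7 (49.0% of all tested probe sets). Leaving out 1 array gave 0 to 2, with rpl14 and rps3 without silwet 1 and rpl14 without silwet 6. The Rep number as replicate block changed no call of SA against silwet. Array weights called 4 genes in the interaction with set (24.8% of all tested probe sets), 3 in that with Rep number and 2 within sets. The settings that combine a block with leaving out silwet 4 and 7, and those that leave out arrays within sets, were added after seeing the data. The causes were not tested. MAS5 signals near the filter, such as those of rpoB, rps14 and ndhF, limit what these 3 genes can show.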
